A study of Arabidopsis thaliana with 44 samples.

Results

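Shoots of Arabidopsis thaliana labelled tpst-1, mutant for the enzyme that sulfates small signalling peptides, were set against shoots labelled psyr1,2,3, mutant for the receptors of a family of those peptides. The comparison took all 4 libraries labelled tpst-1 Shoot and all 4 labelled psyr123 Shoot, 8 of the 44 libraries of the series. The plants were 7 days old, and the labels of both mutants give no treatment and do not describe the alleles. 3 other shoot groups of 4 libraries each are given beside the comparison where they help to place a value: tpst-1 treated with the peptide PSY5 at 1 uM, the quadruple mutant tpst/psyr1,2,3, and wild type. All fold changes are log2 values of tpst-1 over psyr1,2,3, so a positive value is higher in tpst-1. The value after ± of a fold change is an approximate standard error worked back from the test. It is the size of the fold change divided by the square root of the test's F statistic. Levels are TPM, read numbers scaled by gene length and library total, divided by a factor per library and called normalised TPM. The factor is the library's median ratio to the geometric mean of the 20 shoot libraries. The labels do not say whether the replicates of a genotype were separately grown plants, so the p-values measure only the spread between these libraries, which may be technical.

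Tyrosylprotein sulfotransferase, encoded by TPST, sits in the Golgi and adds sulfate to tyrosines of secreted peptides. Its substrates include the growth peptides PSY and PSK, the root meristem growth factors RGF, and the CIF peptides that seal the root endodermis, so a tpst mutant lacks the mature form of several peptide hormones and not of PSY alone. PSYR1, PSYR2 and PSYR3 are leucine-rich repeat receptor kinases; in the published model they signal while empty, switching on stress genes, and a bound sulfated PSY peptide silences them. A tpst-1 plant would then hold empty receptors and a psyr1,2,3 plant none, and the comparison asks how far the shoot transcriptomes of these plants lie apart.

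Of 20723 genes tested, 1855 were higher and 869 lower in tpst-1 than in psyr1,2,3 shoots at an adjusted p below 0.05 by edgeR's quasi-likelihood test. These are 8.95% and 4.19% of all genes tested, 13.1% in either direction, and they are the background for every count below. The gene lists counted below were chosen with earlier results of these data known. A list share above this background is therefore a description and not a test. Beyond 2-fold, 830 genes were higher and 108 lower, so the larger changes lay mostly on the higher side in tpst-1. On the deposited TPM without rescaling, limma placed 16.6% of its calls on the higher and 83.4% on the lower side, against 68.1% and 31.9% in the edgeR test. The median of all genes was then -0.285 on the log2 scale, so a change on that scale has to be read against this shift. Fitted to these 2 groups alone, edgeR called 863 genes higher and 149 lower. The receptor, cell cycle, auxin and ribosome biogenesis lists described below then held no call, and the list of nuclear photosynthesis genes held 1.

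The libraries differed in ways that touch several results. The tpst-1 libraries held 10030387 to 16816553 reads and the psyr1,2,3 libraries 8610277 to 10501869. Replicate 1 of tpst-1 was the deepest, had 22% of its reads in its 20 largest genes against 12.2 to 14.5% in the other tpst-1 libraries, and had the lowest rank correlation with its group, at most 0.894. Without it, 1919 genes were higher (9.26% of those tested) and 1083 lower (5.23%). Chloroplast genes took 2.3 to 4.42% of reads in tpst-1 and 1.38 to 1.67% in psyr1,2,3. The 7 shoot markers summed to 33300 to 58200 normalised TPM in tpst-1 and 28700 to 31300 in psyr1,2,3, and the 15 root markers to 4.03 to 21.2 and 5.63 to 10.5, with PLT1 at 0 in all tpst-1 and MRN1 and IRT1 at 0 in all psyr1,2,3 libraries. The highest root sum was that of tpst-1 replicate 4. The labels name 2 library kits and 2 instruments without saying which samples they served, so a kit effect and the genotype cannot be told apart here.

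The mutated genes themselves were read first. PSYR1 (AT1G17230) had 3.95, 5.95, 6.36 and 5.82 normalised TPM in tpst-1 shoots, against 1.51, 1.19, 0.968 and 0.531 in psyr1,2,3 shoots (2.4 ± 0.21, adjusted p = 1.05e-07). Every tpst-1 library lay above every psyr1,2,3 library. PSYR2 (AT2G33170) had 2.83, 7.58, 7.65 and 7.53 normalised TPM in tpst-1, against 4.69, 4.85, 3.66 and 3.21 in psyr1,2,3. Its groups overlapped through tpst-1 replicate 1, and the difference missed the threshold (0.63 ± 0.22, adjusted p = 0.0574). Without that library it passed (0.89, adjusted p = 6.44e-05).

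PSYR3 (AT5G63930) went the other way, at 1.48, 3.57, 3.25 and 4.22 normalised TPM in tpst-1 and 4.67, 5.14, 5.33 and 6.00 in psyr1,2,3. The groups did not overlap, yet the test missed the threshold (-0.78 ± 0.27, adjusted p = 0.055). Without tpst-1 replicate 2 or replicate 4, or with DESeq2, it passed. TPST (AT1G08030) had 7.63, 8.33, 7.34 and 7.08 normalised TPM in tpst-1, against 11, 10.1, 11.2 and 10.6 in psyr1,2,3 (-0.40 ± 0.13, adjusted p = 0.0469). The transcript was thus present in shoots labelled tpst-1, and its call was lost in 7 of the 8 fits that left out 1 library. A count over the whole gene cannot tell an intact transcript from a truncated one, so a level checks the genotype only in part. The receptor names were tied to these loci from published nomenclature, since the annotation describes them only as receptor-like kinases.

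**Figure D1:**
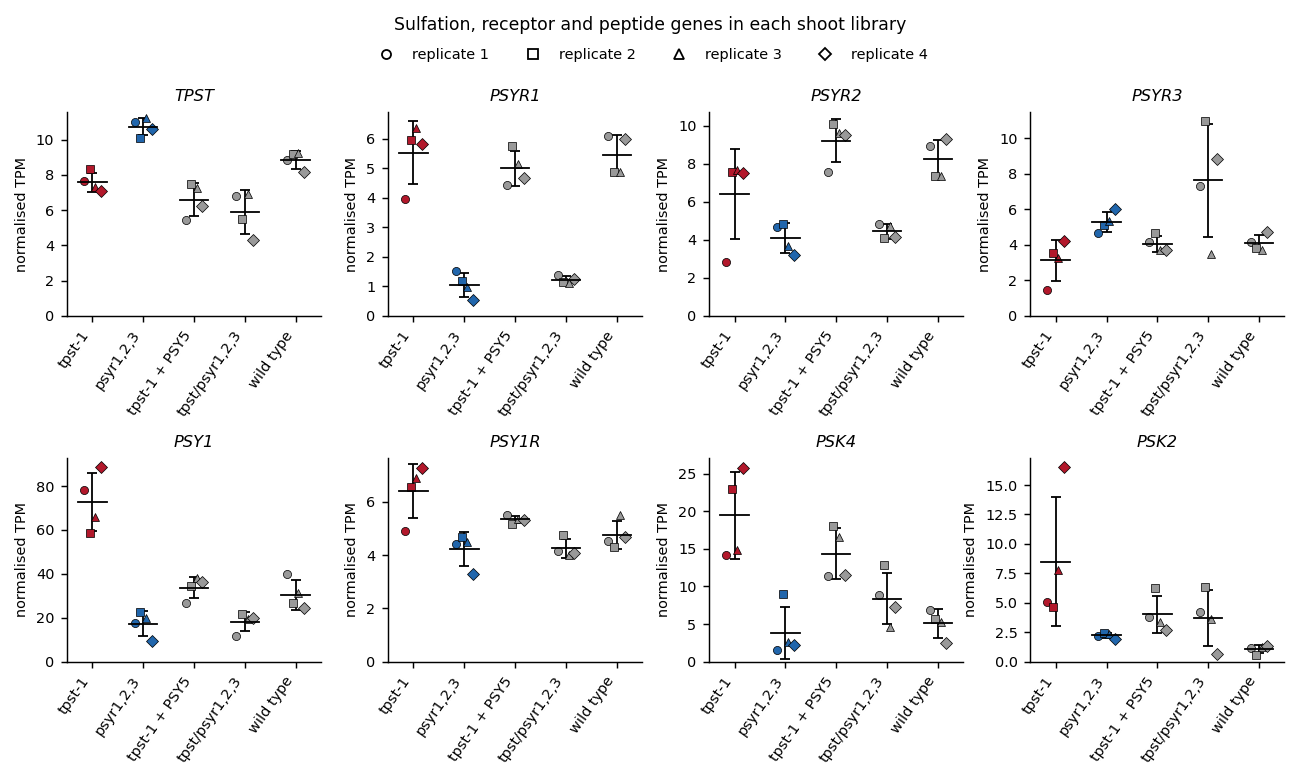
Normalised TPM of 8 genes in the 5 shoot groups; points are libraries, bars the mean with its SD (n = 4). PSYR1 is low in both groups that carry psyr1,2,3, at 1.05 normalised TPM in psyr1,2,3, whereas TPST reaches 7.59 in tpst-1 and 10.7 in psyr1,2,3.

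Among genes for sulfated peptides, PSY1 and 3 phytosulfokine precursor genes were higher in tpst-1 shoots. PSY1 (AT5G58650), a precursor of the peptide family that the PSY receptors bind, had 78.0, 58.8, 65.7 and 88.8 normalised TPM in tpst-1 against 17.8, 22.6, 19.7 and 9.28 in psyr1,2,3 (2.05 ± 0.23, adjusted p = 3.00e-06). All 4 tpst-1 libraries were well above the highest psyr1,2,3 library. PSK4, a phytosulfokine precursor, had 14.2, 22.9, 14.9 and 25.8 normalised TPM in tpst-1 against 1.53, 8.98, 2.65 and 2.22 in psyr1,2,3 (2.4 ± 0.42, adjusted p = 0.000424). The psyr1,2,3 libraries stayed below the tpst-1 libraries here too, with replicate 2 the highest of them. PSK2 and PSK3 rose as well, by 1.93 and 0.91, the first losing its call without tpst-1 replicate 4. RGF9 fell by 0.37, a call kept only without tpst-1 replicate 1 or replicate 2 among the 8 fits that left out 1 library. In all, 3 of the 8 tested members of the other sulfated peptide precursors rose and 1 fell, and 7 more were too weakly expressed to test. The entries PSY2 to PSY9 and CIF1 to CIF4 matched no gene name and were not read, so PSY1 stood alone for the PSY precursors.

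Of the receptor genes of these peptides 1 passed the test. PSY1R, a receptor kinase related to the phytosulfokine receptors, had 4.92, 6.54, 6.90 and 7.25 normalised TPM in tpst-1 and 4.43, 4.67, 4.48 and 3.28 in psyr1,2,3 (0.59 ± 0.13, adjusted p = 0.00333), with no overlap. It was the only one of 8 tested receptor and co-receptor genes to pass. The other 7, among them PSKR1 (0.41), PSKR2 (-0.22) and the co-receptor BAK1 (-0.04), did not. The entries RGFR1, RGFR2, RGFR3 and RGI5 matched no gene name and were not read. Without tpst-1 replicate 1 the list had 2 genes higher, and without tpst-1 replicate 2 it had 1 higher and 1 lower.

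Transcription factors of the early stress response stood far higher in tpst-1 shoots. All 7 tested C2H2 zinc finger genes of the ZAT and AZF group rose, with a median of 2.79, and 11 of the 14 tested ethylene response factor genes rose while 1 fell (2 without psyr1,2,3 replicate 1), with a median of 2.29; the median of all genes was 0.008. In 6 of the 7 zinc finger genes all 4 tpst-1 libraries lay above all 4 psyr1,2,3 libraries, which held for 8.9% of all genes tested. ZAT10, a repressor induced by many stresses, had 69.8, 29.4, 71.0 and 67.7 normalised TPM in tpst-1 and 0.563, 2.08, 2.01 and 6.69 in psyr1,2,3 (4.34 ± 0.48, adjusted p = 2.46e-06). Replicate 2 was the lowest tpst-1 library and still stood above all psyr1,2,3 libraries. ZAT12, which responds to reactive oxygen, had 33.9, 15.8, 42.7 and 27.6 normalised TPM in tpst-1 and 0.571, 1.21, 1.17 and 3.00 in psyr1,2,3 (4.3 ± 0.48, adjusted p = 2.43e-06). ERF105 had 58.5, 28.8, 68.8 and 49.6 normalised TPM in tpst-1 and 1.54, 2.6, 2.53 and 6.70 in psyr1,2,3 (3.90 ± 0.36, adjusted p = 1.61e-07). In both genes replicate 2 was the lowest tpst-1 and replicate 4 the highest psyr1,2,3 library, and the groups lay clearly apart. ERF104, a substrate of the immune kinase MPK6, rose by 2.84, ERF4, a repressor, by 2.28, and DREB26 by 2.23.

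The wounding factor ERF109, chosen after its values were seen, had 3.09, 1.46, 6.90 and 36.4 normalised TPM in tpst-1 and 0.359, 0, 0.738 and 0.313 in psyr1,2,3. The annotated long non-coding RNA AT4G08985, which RefSeq notes as antisense to the ERF109 gene, had 1.84, 1.78, 7.96 and 40.9 normalised TPM in tpst-1 and no read in any psyr1,2,3 library, at least 106-fold higher in tpst-1 when 3 reads over the psyr1,2,3 group are taken as the floor, and at least 28.4-fold without tpst-1 replicate 4. Replicate 4 was the highest tpst-1 library for both transcripts. Strand-aware counting is not stated in the sources used here, so reads of the gene and of its antisense partner may not be separated.

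Of the 22 tested WRKY genes, which encode regulators of defence that bind the W-box, 9 rose and none fell. WRKY22 (AT4G01250), which acts downstream of pattern receptors, had 28.3, 14.1, 24.2 and 25.4 normalised TPM in tpst-1 and 2.54, 4.46, 3.07 and 4.41 in psyr1,2,3 (2.64 ± 0.25, adjusted p = 2.43e-07). WRKY40 (AT1G80840), a repressor of immunity paired with WRKY18, had 15.6, 8.38, 24.3 and 60.9 normalised TPM in tpst-1 and 1.37, 2.17, 2.38 and 4.21 in psyr1,2,3 (3.41 ± 0.51, adjusted p = 8.75e-05). Neither gene's groups overlapped, though the tpst-1 libraries of WRKY40 spread widely with replicate 4 on top. WRKY18 rose by 2.68 and WRKY11 by 1.39. Their promoters are shown because WRKY factors bind WRKY promoters: the 300 bases before the RefSeq gene start on TAIR10.1, 5' to 3', with the W-box core TTGAC on either strand in capitals, for WRKY22 at chr4:524250-524549, minus strand, and WRKY40 at chr1:30383261-30383560, plus strand.
WRKY22: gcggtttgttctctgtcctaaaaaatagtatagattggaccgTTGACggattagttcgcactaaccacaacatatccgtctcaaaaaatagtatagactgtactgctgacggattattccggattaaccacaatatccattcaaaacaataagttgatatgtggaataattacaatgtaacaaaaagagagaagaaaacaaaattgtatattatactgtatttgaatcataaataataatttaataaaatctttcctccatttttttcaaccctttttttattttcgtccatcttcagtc
WRKY40: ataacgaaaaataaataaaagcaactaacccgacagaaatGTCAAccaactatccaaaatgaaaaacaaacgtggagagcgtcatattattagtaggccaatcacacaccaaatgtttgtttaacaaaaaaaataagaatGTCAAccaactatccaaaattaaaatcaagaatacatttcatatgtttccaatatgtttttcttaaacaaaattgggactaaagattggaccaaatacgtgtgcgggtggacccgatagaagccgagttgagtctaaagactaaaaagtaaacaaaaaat
The core was present in 24 of 27 WRKY promoters, 88.9%, and in 50.4% of all 27443 promoters of that length. These letters are short and a match is only a description.

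Several cold and drought regulators were also higher in tpst-1 shoots. Relative to the psyr1,2,3 mean, the median log2 level of the cold list was 0.52 to 0.68 in tpst-1 and 0.47 to 0.74 in tpst/psyr1,2,3. It was -0.16 to 0.46 in tpst-1 with PSY5 and -0.09 to 0.40 in wild type. The ZAT and AZF list differed in the quadruple mutant, at 1.66 to 2.67 in tpst-1 and -0.73 to 0.30 in tpst/psyr1,2,3. CBF2, an activator of cold acclimation genes, had 18, 10.1, 22 and 13.9 normalised TPM in tpst-1 and 1.73, 0.845, 1.84 and 2.36 in psyr1,2,3 (3.19 ± 0.36, adjusted p = 3.29e-06), with no overlap. COR15A, a chloroplast protein that protects membranes in the cold, rose by 2.31, and ERD10, a dehydrin, by 0.95. Of the 12 tested genes of cold response 8 rose and none fell. That count was 5 without psyr1,2,3 replicate 1 and 4 without psyr1,2,3 replicate 2. MYB77, MYB44 and MYB73, related stress MYB factors, rose by 2.09, 1.72 and 1.48, within a list of 16 tested NAC and MYB genes of which 7 rose and 2 fell. The count of falls was 1 without tpst-1 replicate 1, 3 or 4 or psyr1,2,3 replicate 2 or 4, and 3 without psyr1,2,3 replicate 1.

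**Figure D2:**
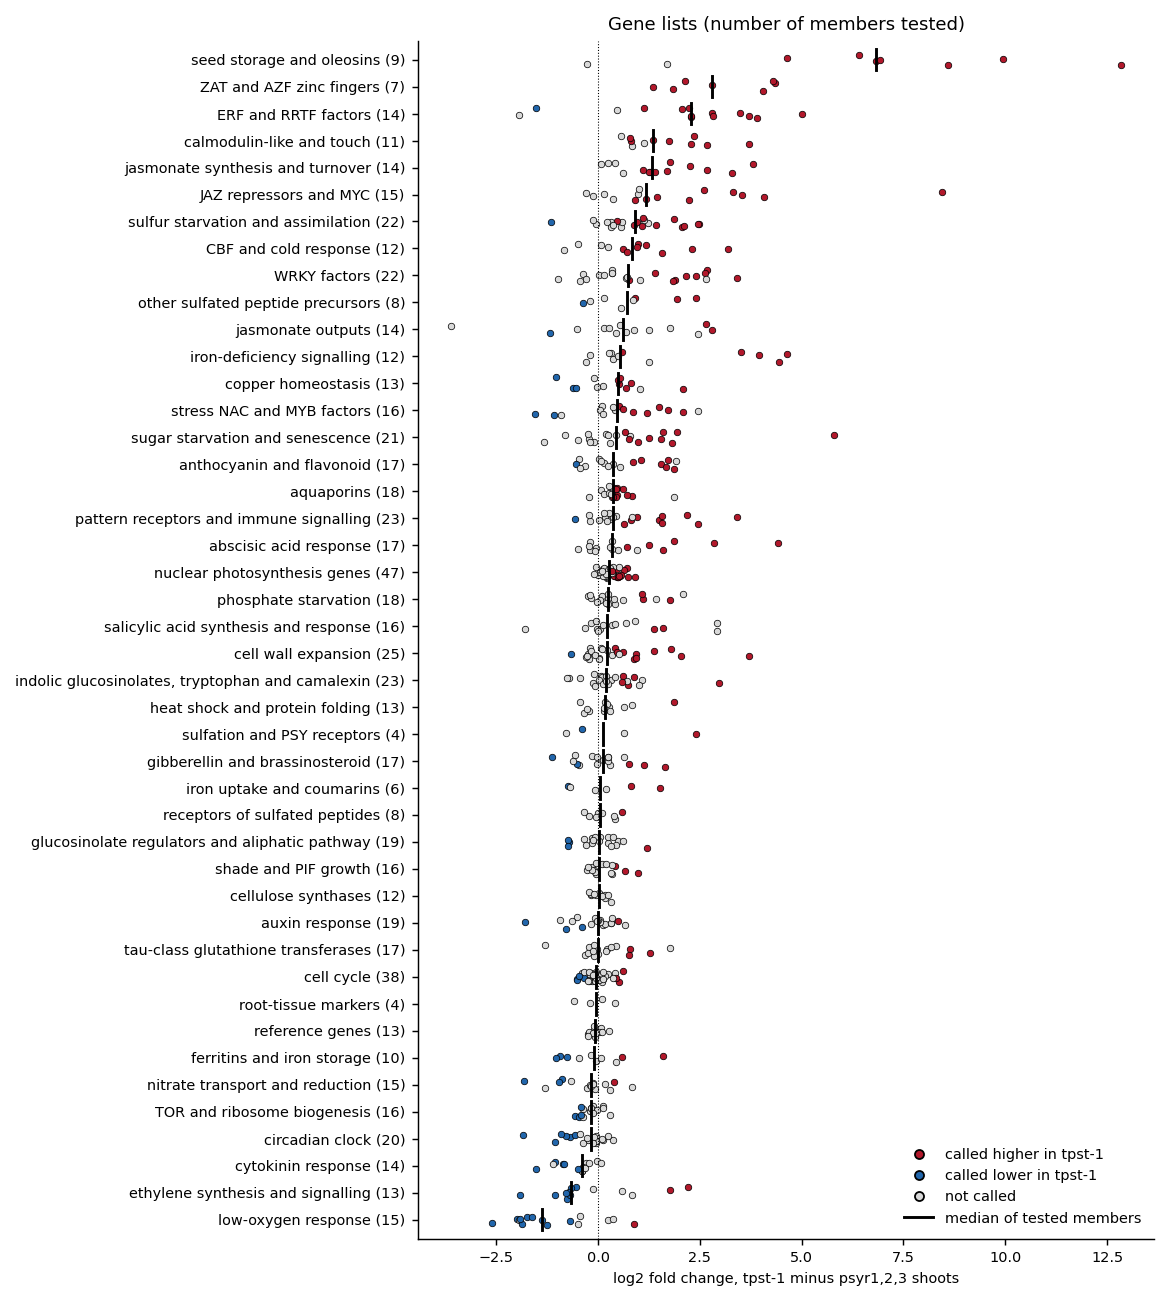
Log2 fold change, tpst-1 over psyr1,2,3, of each tested member of the gene lists, 1 row per list; the mark is the list's median. The ZAT and AZF genes (median 2.79) and seed storage genes (6.82) lie to the right and the low-oxygen genes (-1.38) to the left; fitted values of genes without a read in psyr1,2,3 depend on the fit's prior count.

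Most jasmonate genes of synthesis and most JAZ and MYC genes rose. Jasmonates are wound hormones made from plastid lipids, and JAZ proteins both repress the response and are induced by it. Of 14 tested genes of synthesis and turnover 10 rose and none fell, with a median of 1.34, and of 15 tested JAZ and MYC genes 9 rose and none fell, with a median of 1.18. LOX2, the first committed step in leaves, had 190, 212, 175 and 180 normalised TPM in tpst-1 and 103, 67.3, 82.7 and 54.1 in psyr1,2,3 (1.28 ± 0.18, adjusted p = 3.84e-05). The tpst-1 libraries were close to each other and all above the psyr1,2,3 libraries. AOC3, an allene oxide cyclase, had 6.97, 2.87, 5.71 and 33.7 normalised TPM in tpst-1 and 1.4, 0.334, 1.3 and 0.528 in psyr1,2,3 (3.81 ± 0.64, adjusted p = 0.000303). AOC3 is one of 4 similar cyclase genes among which reads may be shared.

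JAZ1 had 29.6, 15.4, 31.1 and 126 normalised TPM in tpst-1 and 5.11, 3.14, 3.26 and 6.62 in psyr1,2,3 (3.52 ± 0.47, adjusted p = 2.37e-05). MYC2, the master regulator of the response, had 14.8, 12.8, 30.5 and 65.3 normalised TPM in tpst-1 and 6.63, 5.45, 6.59 and 7.36 in psyr1,2,3 (2.23 ± 0.34, adjusted p = 0.000111). JAZ7 had 3.57, 2.48, 1.86 and 22.5 normalised TPM in tpst-1 and no read in psyr1,2,3, at least 58.9-fold higher in tpst-1, and at least 18-fold without replicate 4. In AOC3 and these 3 genes tpst-1 replicate 4 was far above the other tpst-1 libraries, yet no tpst-1 library reached down to the psyr1,2,3 libraries. Without replicate 4 the JAZ and MYC list had 4 genes higher with a median of 0.54, the synthesis list had a median of 0.66, and JAZ5 lost its call. VSP2, a storage protein and classic jasmonate output, had 134, 49.0, 53.8 and 49.3 normalised TPM in tpst-1 and 18.7, 8.27, 6.55 and 8.14 in psyr1,2,3 (2.79 ± 0.37, adjusted p = 2.05e-05), with replicate 1 the highest library in each group; its close copy VSP1 can exchange reads with it. Of the 14 tested outputs VSP1 and VSP2 rose (4 genes without tpst-1 replicate 3), and PR4 fell by 1.17, a call lost in 6 of the 8 fits without 1 library; 2 outputs fell without psyr1,2,3 replicate 1.

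Most touch and calcium genes rose, and of the immune signalling genes fewer rose than were not called. Of 11 tested calmodulin-like and touch genes 8 rose and none fell, with a median of 1.35. TCH2, a calmodulin-like protein, had 364, 133, 244 and 235 normalised TPM in tpst-1 and 37.5, 31.9, 37.9 and 49.5 in psyr1,2,3 (2.68 ± 0.21, adjusted p = 2.64e-08). XTH22, the touch-induced wall enzyme TCH4, had 213, 148, 243 and 177 normalised TPM in tpst-1 and 18.8, 16.7, 13.2 and 11.6 in psyr1,2,3 (3.72 ± 0.27, adjusted p = 9.96e-09). Both genes' groups were far apart, with tpst-1 replicate 2 the lowest of its group.

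MKK9, a kinase of the ethylene and camalexin cascades, had 63.3, 35.8, 70.6 and 45.3 normalised TPM in tpst-1 and 9.46, 7.36, 10.3 and 11.3 in psyr1,2,3 (2.46 ± 0.19, adjusted p = 1.99e-08). PHI-1, a phosphate-induced gene, had 33.1, 19.9, 40.3 and 30.6 normalised TPM in tpst-1 and 3.1, 4.68, 1.97 and 1.57 in psyr1,2,3 (3.42 ± 0.36, adjusted p = 1.04e-06). Neither overlapped. The ubiquitin ligase gene PUB23 rose by 2.17 and the kinase gene MPK3 by 0.97. Of 23 tested pattern receptor and immune signalling genes 9 rose and 1 fell; the one that fell was the flagellin receptor gene FLS2, by 0.58, named for its direction after its value was seen. Salicylic acid genes did little: 2 of 16 rose, CBP60G by 1.6 and NPR3 by 1.37, and none fell, with the marker PR1 at 0.149 and 0.0699 mean normalised TPM in tpst-1 and psyr1,2,3. That count was 4 without tpst-1 replicate 1. Heat shock genes gave 1 of 13, HSFB2A, at 1.87.

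**Figure D3:**
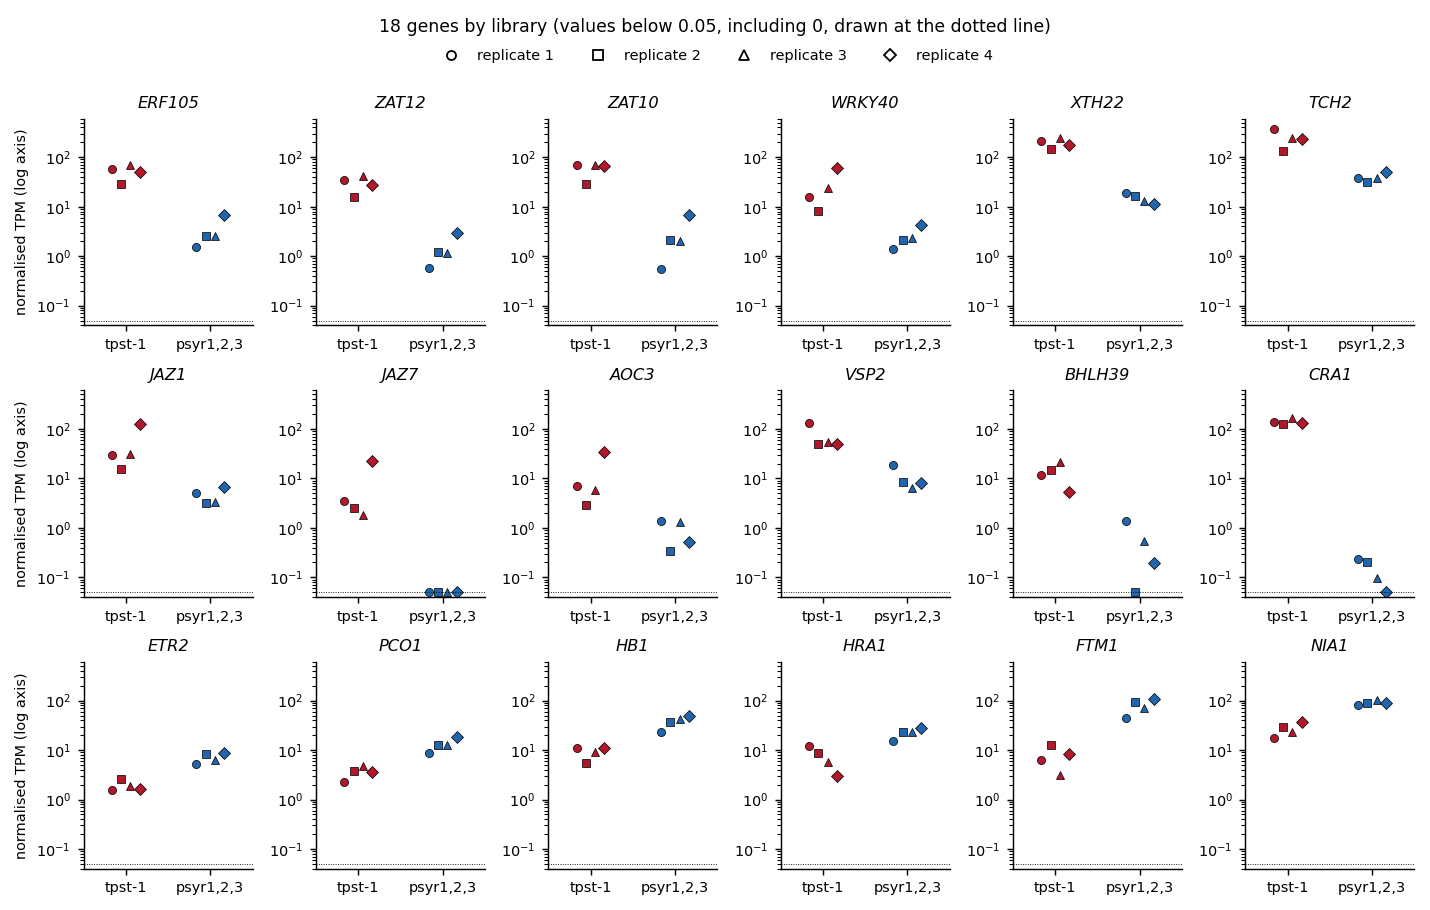
Normalised TPM (log axis) of 18 genes in each tpst-1 and psyr1,2,3 library; values below 0.05 are drawn at the dotted line. The genes that rose sit above their psyr1,2,3 points in all 4 tpst-1 libraries, for instance TCH2 at 133 to 364 against 31.9 to 49.5, and HB1 and NIA1 sit below.

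Seed genes gave the largest rises of the comparison. Storage proteins and oleosins are made in the maturing embryo under the B3 factors ABI3 and FUS3, which bind the RY element CATGCA, and are degraded after germination. CRA1 (AT5G44120), a cruciferin storage protein, had 139, 128, 165 and 133 normalised TPM in tpst-1 and 0.232, 0.200, 0.0968 and 0 in psyr1,2,3 (9.95 ± 1.61, adjusted p = 0.000207). CRC (AT4G28520), another cruciferin, had 56.4, 27.4, 56.4 and 30.7 normalised TPM in tpst-1 and no read in psyr1,2,3, at least 1130-fold higher in tpst-1 on the floor of 3 reads over the group. The oil body protein OLEO1 had 38.4, 14.6, 19.3 and 22.5 normalised TPM in tpst-1 and 0.564, 0, 0 and 0.244 in psyr1,2,3 (6.82 ± 0.71, adjusted p = 9.83e-07). These transcripts were plain in every tpst-1 library and close to absent in every psyr1,2,3 library.

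M17, a late embryogenesis gene, had 48.8, 30.7, 39.9 and 27.6 normalised TPM in tpst-1 and no read in psyr1,2,3, at least 402-fold higher in tpst-1. Of the 9 tested members of the seed list 7 rose and none fell, with a median of 6.82, or 6.41 with the 2 genes that had no psyr1,2,3 read set at their bound; 10 more members were too weakly expressed to test. The 15 largest rises held CRC, CRA1, M17, PER1, an antioxidant of the seed, TIP3;1, the seed vacuole aquaporin, BGLU19, TSPO, and the unnamed cupin gene AT2G28490, oleosin gene AT2G25890 and lectin gene AT3G21380. The 15 also held other genes, among them AT5G35660 and AT4G08985, the RNA noted as antisense to ERF109. AT2G28490, AT3G21380, AT1G47980, AT2G25890 and AtMT4b also had no psyr1,2,3 read and were at least 220, 142, 116, 47.4 and 44.8-fold higher. The seed albumin genes SESA1 and SESA3 were at or near 0 in both groups, at most 2.2 normalised TPM.

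The 8 seed markers summed to 192 to 298 normalised TPM in tpst-1 and 0.244 to 3.39 in psyr1,2,3. In the other shoots they summed to 18.6 to 166 in tpst-1 with PSY5, 16.0 to 47.4 in tpst/psyr1,2,3 and 0.228 to 48.4 in wild type, where replicate 2 alone was high. In whole shoots, more cells of a type and more RNA per cell cannot be told apart, and whether seed or embryo tissue went into the tpst-1 libraries was not tested. Among abscisic acid genes, the hormone of seed maturation and drought, 6 of 17 rose and none fell (1 fell without tpst-1 replicate 2). RAB18, a dehydrin, had 89.5, 42.7, 28.7 and 20.6 normalised TPM in tpst-1 and 6.88, 6.31, 4.64 and 4.41 in psyr1,2,3 (2.85 ± 0.46, adjusted p = 0.000223). Its groups did not overlap, and RD29B, NCED3 and PP2CA rose by 4.42, 1.59 and 0.70.

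Promoters of 3 seed genes are shown with the RY element on either strand in capitals, as the 300 bases before the RefSeq gene start on TAIR10.1, 5' to 3': CRA1 at chr5:17758337-17758636, minus strand; CRC at chr4:14087256-14087555, plus strand; and OLEO1 at chr4:12900130-12900429, plus strand.
CRA1: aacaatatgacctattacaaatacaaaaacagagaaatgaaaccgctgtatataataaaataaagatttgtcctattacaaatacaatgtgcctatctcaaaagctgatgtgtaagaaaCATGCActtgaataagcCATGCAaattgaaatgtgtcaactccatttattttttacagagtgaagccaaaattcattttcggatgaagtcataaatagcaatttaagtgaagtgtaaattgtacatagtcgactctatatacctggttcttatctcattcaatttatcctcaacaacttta
CRC: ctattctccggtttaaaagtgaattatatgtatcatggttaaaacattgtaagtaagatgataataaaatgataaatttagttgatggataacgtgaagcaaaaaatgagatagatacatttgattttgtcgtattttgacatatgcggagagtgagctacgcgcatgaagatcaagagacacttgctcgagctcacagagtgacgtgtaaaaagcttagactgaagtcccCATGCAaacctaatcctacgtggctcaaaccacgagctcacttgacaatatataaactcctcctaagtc
OLEO1: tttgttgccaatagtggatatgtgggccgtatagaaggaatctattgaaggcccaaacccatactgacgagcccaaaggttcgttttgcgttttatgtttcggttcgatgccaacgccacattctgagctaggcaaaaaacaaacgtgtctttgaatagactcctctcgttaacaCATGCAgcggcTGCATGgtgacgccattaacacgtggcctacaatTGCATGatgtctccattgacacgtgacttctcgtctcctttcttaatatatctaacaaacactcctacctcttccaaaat
CRA1 holds matches 181 and 164 bases before its start, CRC 1 at 69, and OLEO1 3 at 125, 114 and 80. The element was in 12 of 19 promoters of the seed list, 63.2%, and in 10.3% of all promoters. The G-box CACGTG was in 9 of the 19, 47.4%, and in 7.09% of all promoters; OLEO1 holds 2.

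Genes of the low-oxygen response went the other way. These genes are switched on when the ERF-VII factors escape the oxygen-dependent N-degron pathway, and the plant cysteine oxidases PCO1 and PCO2 are both sensors and targets. Of the 15 tested members 9 fell and 1, HRE1, rose, with a median of -1.38. Relative to the psyr1,2,3 mean, the list's median log2 level was -1.35 to -0.83 in tpst-1 libraries and -0.52 to 0.23 in psyr1,2,3. It was -0.94 to -0.55 in tpst-1 with PSY5, -1.13 to -0.51 in tpst/psyr1,2,3 and -1.01 to -0.36 in wild type. A level below most psyr1,2,3 libraries was thus not particular to tpst-1. No member rose without tpst-1 replicate 1 or 3, without psyr1,2,3 replicate 2 or 3, or in the fit to these 2 groups alone. HB1, a haemoglobin that scavenges nitric oxide, had 10.8, 5.57, 9.20 and 11 normalised TPM in tpst-1 and 23.7, 36.7, 41.8 and 48.4 in psyr1,2,3 (-1.98 ± 0.37, adjusted p = 0.000829). PCO1 had 2.32, 3.71, 4.79 and 3.68 normalised TPM in tpst-1 and 8.77, 12.9, 12.9 and 18.1 in psyr1,2,3 (-1.86 ± 0.28, adjusted p = 0.000107). HRA1, a trihelix factor that restrains the response, had 12.1, 8.56, 5.78 and 2.98 normalised TPM in tpst-1 and 15, 23.5, 22.7 and 28.3 in psyr1,2,3 (-1.62 ± 0.30, adjusted p = 0.000711). In all 3 genes replicate 1 was the lowest psyr1,2,3 library, and no library crossed between the groups. All 4 tpst-1 libraries lay below all 4 psyr1,2,3 libraries in 10 of the 15 genes, which held for 6.35% of all genes tested.

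PCO2 fell by 1.75. The fermentation genes ADH1 and PDC1, picked after their values were seen for their known part in ethanol fermentation, fell by 1.25 and 2.62, the second from low levels of 0.354 and 2.22 mean normalised TPM in tpst-1 and psyr1,2,3. HRE1 rose by 0.89, a call lost in the fits just named, and its relative HRE2 had -1.94, which did not pass. FTM1, a stearoyl-ACP desaturase gene, had 6.36, 12.4, 3.16 and 8.53 normalised TPM in tpst-1 and 43.6, 95.9, 72.5 and 107 in psyr1,2,3 (-3.45 ± 0.43, adjusted p = 9.66e-06). Wild-type shoots lay between these groups for FTM1, at 34.4 ± 14.8 normalised TPM (SD, n = 4), and for HB1, at 20 ± 12.7, with a wide spread.

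In the ethylene list receptor genes fell and a synthesis gene rose. Ethylene binds receptors that repress the response when empty, and ETR2, ERS1, ERS2 and EBF2 are themselves induced by the hormone. ETR2, which is also in the low-oxygen list, had 1.54, 2.57, 1.88 and 1.62 normalised TPM in tpst-1 and 5.33, 8.17, 6.3 and 8.91 in psyr1,2,3 (-1.92 ± 0.23, adjusted p = 5.85e-06). The groups did not overlap. ACS6, a stress-induced synthase of the ethylene precursor ACC, had 23.9, 23.5, 38.3 and 30.9 normalised TPM in tpst-1 and 5.95, 6.18, 5.13 and 8.05 in psyr1,2,3 (2.21 ± 0.17, adjusted p = 2.03e-08), also without overlap. Of the 13 tested ethylene genes 8 fell and 2 rose, with EBF2 at -0.72. Fitted to these groups alone, 4 fell.

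Metal and nutrient genes split by pathway. Of 12 tested genes of iron-deficiency signalling 5 rose and none fell, led by the 4 related bHLH factors that leaves switch on when iron is short. BHLH39 had 11.6, 14.5, 21.5 and 5.29 normalised TPM in tpst-1 and 1.35, 0, 0.553 and 0.199 in psyr1,2,3 (4.64 ± 0.77, adjusted p = 0.000451). BHLH38 had 15.6, 14.5, 19.7 and 4.86 normalised TPM in tpst-1 and 1.32, 0.440, 0.853 and 2.12 in psyr1,2,3 (3.51 ± 0.65, adjusted p = 0.00124). Replicate 4 was the lowest tpst-1 library in both, above the highest psyr1,2,3 library; the genes are alike in sequence and can exchange reads. BHLH100 and BHLH101 rose by 4.44 and 3.96. All 4 of the tpst-1 libraries treated with PSY5 had no read of BHLH38, BHLH39 or BHLH100. The ferritin genes FER1 and FER4, which store iron, fell by 0.94 and 0.77 and the transporter gene YSL1 by 1.02, with 3 of 10 genes of that list lower and 2 higher. That count of falls was 1 without psyr1,2,3 replicate 2, 3 or 4, that of rises was 1 without tpst-1 replicate 1 or psyr1,2,3 replicate 1, 2 or 3, and FER1 also lost its call without tpst-1 replicate 3 or 4.

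Among copper genes an importer rose and an enzyme that uses copper fell. COPT2, a copper importer, had 21.5, 13.5, 10.9 and 13.4 normalised TPM in tpst-1 and 3.71, 3.45, 3.34 and 3.22 in psyr1,2,3 (2.1 ± 0.29, adjusted p = 4.12e-05). CSD2, the chloroplast copper/zinc superoxide dismutase, had 17.5, 12.1, 10.3 and 12.8 normalised TPM in tpst-1 and 26.0, 27.7, 22 and 30.5 in psyr1,2,3 (-1.03 ± 0.19, adjusted p = 0.000809). Both genes separated the groups, in opposite directions. Of 13 tested copper genes 6 rose and 3 fell, and without psyr1,2,3 replicate 4 only 1 fell; the iron superoxide dismutase gene FSD1 had -0.03 and did not pass.

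Sulfur starvation genes rose in 11 of 22 cases. A single gene, APS4, fell, and the list had a median of 0.91, or 0.47 without tpst-1 replicate 1. SULTR1;2, a sulfate importer, had 15.4, 11.3, 13.3 and 14.0 normalised TPM in tpst-1 and 4.42, 3.97, 1.71 and 2.03 in psyr1,2,3 (2.06 ± 0.24, adjusted p = 4.36e-06). GGCT2;1, which recycles glutathione, had 78.3, 31.0, 32.6 and 28.8 normalised TPM in tpst-1 and 9.77, 8.63, 6.39 and 6.28 in psyr1,2,3 (2.46 ± 0.27, adjusted p = 2.38e-06). Groups did not overlap in either gene, and replicate 1 was the highest tpst-1 library. SULTR4;2, a vacuolar exporter, and APS3, an ATP sulfurylase, rose by 1.42 and 1.09. The starvation marker SDI1, chosen after its values were seen, stood at 41.5 and 7.43 mean normalised TPM in tpst-1 and psyr1,2,3 and at 9.11, 10.1, 8.80 and 5.65 across the PSY5-treated tpst-1 libraries.

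Genes for the first steps of nitrate assimilation fell. NIA1, a nitrate reductase, had 17.3, 28.8, 22.8 and 37.1 normalised TPM in tpst-1 and 83.5, 91.0, 101 and 89.9 in psyr1,2,3 (-1.82 ± 0.19, adjusted p = 9.50e-07), far apart. Its partner NIA2 fell by 0.88 and the nitrite reductase gene NIR1 by 0.97. Of 15 tested nitrate genes these 3 fell and 1, LBD37, rose by 0.38, a call lost without tpst-1 replicate 4 and without psyr1,2,3 replicate 1, 3 or 4; the list had 2 rises without tpst-1 replicate 1 or 2, and without replicate 1 also 4 falls. Phosphate starvation genes gave 3 of 18 higher and none lower, among them the exporter gene PHO1 at 1.1.

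Sugar and pigment genes were higher in part. DIN6, the asparagine synthetase induced by darkness, had 10.6, 25, 37.6 and 39.1 normalised TPM in tpst-1 and 9.95, 6.78, 6.37 and 6.64 in psyr1,2,3 (1.82 ± 0.36, adjusted p = 0.00138). The lowest tpst-1 library, replicate 1, stood just above the highest psyr1,2,3 library. Of 21 tested genes of sugar starvation and senescence 9 rose and none fell, with EXL2 at 1.61. DFR, an enzyme of anthocyanin synthesis, had 57.9, 46.1, 35.5 and 24.2 normalised TPM in tpst-1 and 10.6, 11.6, 12.5 and 9.88 in psyr1,2,3 (1.88 ± 0.20, adjusted p = 1.04e-06), with no overlap. Of 17 tested anthocyanin and flavonoid genes 6 rose and 1 fell; without tpst-1 replicate 1, 3 rose and 2 fell and TT19 lost its call, and none fell without tpst-1 replicate 3 or psyr1,2,3 replicate 2 or 3. Among 19 glucosinolate regulator and aliphatic pathway genes 1 rose, the regulator MYB51, and 3 fell. The regulators MYB28 and MYB29 fell by 0.72 and 0.74. Without tpst-1 replicate 3 the list had 3 rises and 2 falls. Of 23 indolic glucosinolate and camalexin genes 5 rose, with a count of 3 without tpst-1 replicate 4 or psyr1,2,3 replicate 1 and of 2 without psyr1,2,3 replicate 2 or 3.

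**Figure D4:**
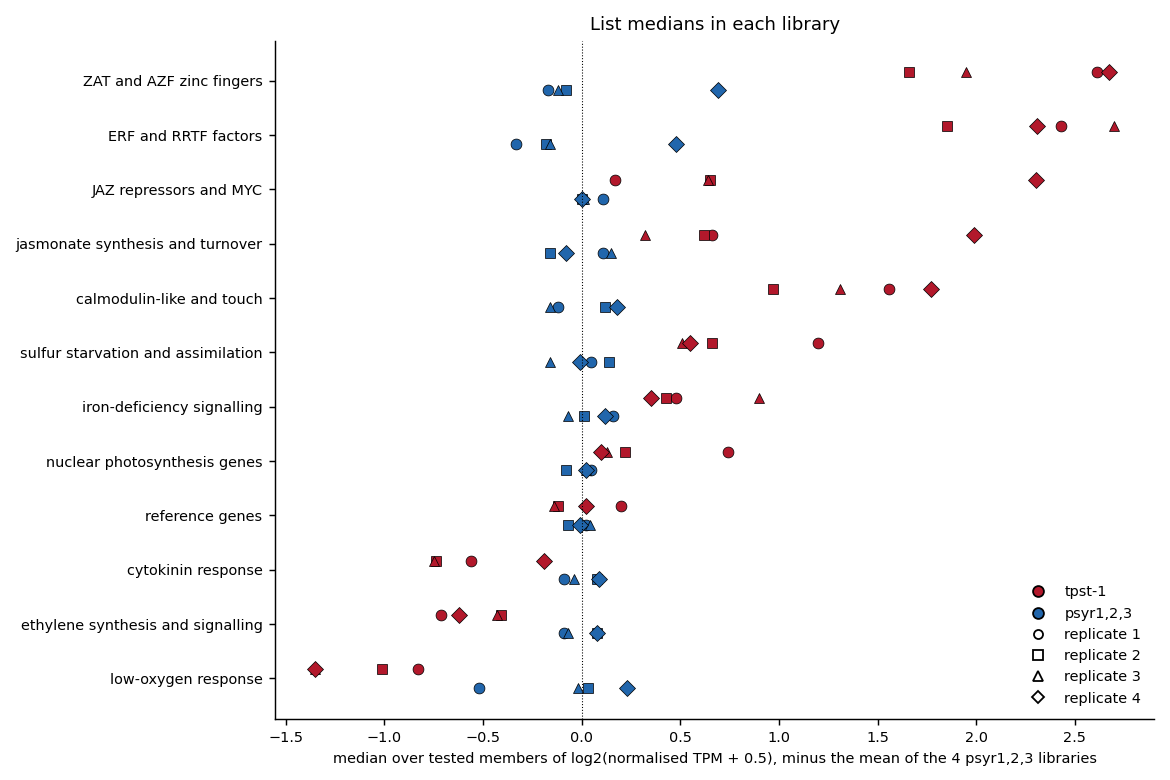
Median log2 level of 12 gene lists in each tpst-1 and psyr1,2,3 library, relative to the mean of the psyr1,2,3 libraries. Each point is 1 library. The JAZ and MYC point of tpst-1 replicate 4, at 2.3, stands above the 0.17 to 0.65 of the other tpst-1 libraries. The low-oxygen list is at -1.35 to -0.83 in tpst-1.

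Of the growth hormone lists, 35.7% of cytokinin, 21.1% of auxin and 29.4% of gibberellin and brassinosteroid genes were called. Cytokinin response genes fell in 5 of 14 cases and rose in none. Relative to the psyr1,2,3 mean, the list's median log2 level was -0.75 to -0.19 in tpst-1 and -0.09 to 0.09 in psyr1,2,3. It was -0.31 to -0.25 in tpst-1 with PSY5, -0.56 to -0.36 in tpst/psyr1,2,3 and -0.32 to -0.17 in wild type. A level below psyr1,2,3 was thus not particular to tpst-1. ARR15, a response regulator induced by cytokinin, had 1.94, 1.62, 1.46 and 5.13 normalised TPM in tpst-1 and 7.83, 8.22, 7.72 and 7.93 in psyr1,2,3 (-1.53 ± 0.32, adjusted p = 0.00228). The psyr1,2,3 libraries were nearly level and all tpst-1 libraries lay below them, replicate 4 the nearest. IPT3, a nitrate-induced enzyme of cytokinin synthesis, had 12.2, 6.24, 7.56 and 5.96 normalised TPM in tpst-1 and 14.9, 17.9, 15 and 18.5 in psyr1,2,3 (-1.07 ± 0.20, adjusted p = 0.00107), again with no overlap. Without tpst-1 replicate 4 the count of falls was 8 with a median of -0.67, against -0.395 with all libraries, and without psyr1,2,3 replicate 3 or 4 it was 3. Auxin response genes gave 1 of 19 higher and 3 lower, and 2 higher and 1 lower without tpst-1 replicate 4. Gibberellin and brassinosteroid genes gave 3 of 17 higher and 2 lower, and 4 lower without tpst-1 replicate 2; the brassinosteroid enzyme genes BR6OX2 and CPD fell by 1.14 and 0.52.

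Cell wall and water channel genes were mostly higher where they passed. Of 25 tested wall expansion genes 10 rose, XTH22 first among them with XTH23 at 2.03 and XTH9 at 0.93, and 1 fell, the expansin gene EXPA1 at -0.66, named for its direction after its value was seen. No wall gene fell without psyr1,2,3 replicate 1 or in the fit to these 2 groups alone, and 2 fell without tpst-1 replicate 2. No cellulose synthase gene of the 12 tested passed edgeR's test, with a median of 0.015; 1 had an unadjusted p below 0.05, DESeq2 called 1, and 2 rose without tpst-1 replicate 1. Of 18 aquaporin genes 9 rose and none fell, with a median of 0.37, led by PIP2;1 at 0.84 and TIP1;1 at 0.71. Relative to the psyr1,2,3 mean, the aquaporin list's median log2 level was 0.30 to 0.67 in tpst-1 and 0.19 to 0.42 in wild type. It was 0.09 to 0.17 in tpst-1 with PSY5 and -0.02 to 0.19 in tpst/psyr1,2,3. Cell cycle genes gave 3 higher and 4 lower of 38, a share of 18.4%. The count of falls was 2 without tpst-1 replicate 2 or 4, 1 without psyr1,2,3 replicate 1 or 4 and 0 without psyr1,2,3 replicate 3. The count of rises was 1 without replicate 4 of either group. Tau-class glutathione transferase genes gave 3 of 17 higher, shade and PIF growth genes 3 of 16, and neither list had a fall, though 1 tau-class gene fell without tpst-1 replicate 1 or 4.

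Of 47 tested nuclear photosynthesis genes 13 rose and none fell, with a median of 0.27. Relative to the psyr1,2,3 mean, the list's median log2 level was 0.10 to 0.74 in tpst-1 and 0.20 to 0.32 in wild type. It was -0.19 to 0.06 in tpst-1 with PSY5 and -0.26 to -0.05 in tpst/psyr1,2,3. LHCB2.3, a light-harvesting protein of photosystem II, had 1570, 1040, 908 and 885 normalised TPM in tpst-1 and 632, 521, 584 and 567 in psyr1,2,3 (0.92 ± 0.15, adjusted p = 0.000247). The groups did not overlap, and replicate 1 was the highest tpst-1 library; LHCB2 copies are alike enough to share reads. The count of rises was 7 without tpst-1 replicate 1, with a median of 0.160, and 6, 4 and 6 without psyr1,2,3 replicate 1, 2 and 3. In the fit to these 2 groups alone it was 1, and on the deposited TPM 3 rose and 2 fell with a median of -0.05, above the shift of all genes on that scale. Of 20 clock genes 6 fell and none rose (1 rose without tpst-1 replicate 1 or psyr1,2,3 replicate 3), with CCA1 at -0.69, LHY at -0.57, RVE2 at -0.91 and FKF1 at -1.06, and the time of harvest was not tested. Ribosome biogenesis genes gave 4 of 16 lower and none higher, and 12 lower without tpst-1 replicate 1; the count was 2 without tpst-1 replicate 3 or psyr1,2,3 replicate 1 or 4. No reference gene of the 13 tested passed edgeR's test; 3 had an unadjusted p below 0.05, DESeq2 called 2 and limma on the deposited TPM called 10, all of them lower, and 1 was lower without tpst-1 replicate 1 or 4.

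Some of the largest falls beyond those named rested on few reads. GRP9, a glycine-rich protein gene, had 0.802, 0, 0 and 0.352 normalised TPM in tpst-1 and 26.6, 4.03, 7.25 and 0.968 in psyr1,2,3 (-4.99 ± 1.34, adjusted p = 0.0157). The psyr1,2,3 libraries spread widely, the lowest just above the tpst-1 libraries, and the call was lost without psyr1,2,3 replicate 1. The others were AT2G06995 and AT1G09323, both non-coding RNAs, AT2G17850, the bHLH gene AT2G43140, the peroxidase gene AT4G11290, the tropinone reductase gene AT2G30670, the MYB-like gene MEE3 and the kinase gene AT3G22750. AT1G09323 rested on 6 reads in tpst-1 and 24 in psyr1,2,3 and lost its call in 7 of the 8 fits without 1 library, and AT2G17850 lost it without tpst-1 replicate 4.

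The other shoots were read side by side, since each comparison shares libraries with the one above. Against wild type, 9.21% of genes passed in tpst-1 and 1.82% in psyr1,2,3. The quadruple mutant differed from tpst-1 in 15% of genes and from psyr1,2,3 in 0.458%, and PSY5-treated tpst-1 differed from untreated tpst-1 in 5.16%. For ZAT10, the levels were 4.31 ± 1.68 normalised TPM in tpst-1 with PSY5, 2.28 ± 1.43 in tpst/psyr1,2,3 and 1.78 ± 0.886 in wild type (SD, n = 4 each), all near the psyr1,2,3 mean of 2.84 and far under the tpst-1 mean of 59.5. XTH22 stood at 53.5 ± 13.0, 20.6 ± 5.56 and 34.3 ± 12.3 normalised TPM in the same order, and PSY1 at 33.8 ± 4.90, 18.1 ± 4.35 and 30.5 ± 6.83. DIN6 was at 51.6 ± 6.51 normalised TPM in wild type, with psyr1,2,3 lower than wild type (-2.76 ± 0.36, adjusted p = 0.000218) and tpst-1 not called against it (-0.94 ± 0.34, adjusted p = 0.0894). ETR2 was at 4.12 ± 1.53 normalised TPM in wild type, with tpst-1 lower (-1.12 ± 0.23, adjusted p = 0.00254) and psyr1,2,3 not called (0.80 ± 0.22, adjusted p = 0.0625).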

How the data were processed

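Total RNA of shoots of 7-day-old plants was sequenced, per the labels' protocols. The deposited files, 1 per sample, list 34262 genes with the number of reads, an expected count with fractions, and the TPM of each gene, per the file headers. The submitters' processing notes name genome build TAIR10; the quantifier was not given in the sources used here. RefSeq TAIR10.1 supplied names for 32548 of the identifiers and the promoter sequences, taken at RefSeq's own gene starts.

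Expected counts were rounded to whole numbers for edgeR 4.0.16 in R 4.3.3, with quasi-likelihood F tests and TMM library factors, with all 20 shoot libraries in 1 fit, for genes that reached 1 TPM in 4 or more libraries. P-values were adjusted by Benjamini and Hochberg over all genes, and genes passed below 0.05. Normalised TPM is the deposited TPM divided by a factor per library, the median ratio to the geometric mean of the 20 libraries. The factors were 0.59, 0.997, 0.946 and 0.998 in tpst-1 and 1.09, 1.12, 1.08 and 1.05 in psyr1,2,3. On simulated counts of 20723 genes, 200 of them changed, the test recovered 25.4%, 61.2% and 90.9% of 1.5-, 2- and 4-fold changes. Of its calls 4.07% were false. The simulated counts took their spread from the fit itself and held no library set apart like tpst-1 replicate 1. These shares therefore describe the test under its own assumptions and not its error on the real libraries. Common biological variation between replicates came to 0.186 as a coefficient.

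The members and the 45 gene lists (820 loci, 697 of them tested; 61 of 891 entries matched no gene) were chosen with earlier results of these data known. Lists are described by counts and medians. Named genes are TPST and PSYR1 to PSYR3, the 15 largest rises and 15 largest falls among called genes whose deposited TPM did not overlap and reached a mean of 5 in 1 group, and up to 4 called members of each list with the smallest adjusted p. Named outside this rule, after their values were seen, were ERF109, FLS2, ADH1, PDC1, HRE1, HRE2, SDI1, FSD1, EXPA1, APS4, PSKR1, PSKR2, BAK1 and PR1. Marker lists of shoot, root and seed were summed. Where a group had no read, 3 reads over the group set a bound, which covers counting error only. Motifs were searched on both strands of the 300 bases before each gene start, overlapping starts included. Alternatives were other size factors, DESeq2 1.42.0, limma 3.58.1 on deposited and on normalised TPM, other filters, the 2 groups alone, a replicate block and each library left out; limma on normalised TPM was added after the data were seen.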

Additional observations from a re-analysis of the deposited data

Results flagged for a closer look

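In 13 of 110 groups of 4 libraries checked, the highest or lowest library stood apart from the other 3 by more than Dixon's 95% critical value, where chance gives about 1 in 20. Among tpst-1 shoots, replicate 1 was low for PSYR2, at 2.83 normalised TPM against 7.53 to 7.65 in the others. It was high for VSP2, at 134 against 49.0 to 53.8, and for GGCT2;1, at 78.3 against 28.8 to 32.6. The same library had the lowest TPM factor, 0.59 against 0.946 to 0.998. Replicate 4 was high for the jasmonate genes AOC3 (33.7 against 2.87 to 6.97), JAZ1 (126 against 15.4 to 31.1) and JAZ7 (22.5 against 1.86 to 3.57). It was also high for the cytokinin regulator gene ARR15 (5.13 against 1.46 to 1.94) and for the antisense RNA AT4G08985 (40.9 against 1.78 to 7.96). Replicate 2 was low for ZAT10, at 29.4 against 67.7 to 71.0.

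Among psyr1,2,3 shoots, replicate 1 was high for VSP2, at 18.7 against 6.55 to 8.27, and for DIN6, at 9.95 against 6.37 to 6.78. Replicate 2 was high for PSK4, at 8.98 against 1.53 to 2.65.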

How the results depend on the processing

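No named gene or target reversed its direction under any alternative, and of 168 named genes beyond the targets 108 kept their call in every alternative. Limma on log2 of the deposited TPM plus 1, 0.1 and 5 called 4990, 4800 and 5253 genes, with 828, 783 and 860 higher and 4162, 4017 and 4393 lower. List members called higher were then 108, 105 and 111 against 198 in the main test, and lower 135, 131 and 138 against 63. With limma on log2 of normalised TPM plus 1, 1700 were higher and 893 lower. Fitted to the 2 groups alone, edgeR called 1012 genes, 863 higher and 149 lower, and 115 and 32 list members. Leaving out 1 library at a time gave 1920 to 3252 calls, 1408 to 2055 higher and 512 to 1197 lower, with 163 to 206 and 44 to 75 list members. The lower count was 575, 570, 544 and 512 without psyr1,2,3 replicates 1 to 4. The tpst-1 and psyr1,2,3 libraries of the same replicate number did not deviate together (correlations of -0.075, 0.042, 0.023 and -0.154). Libraries of unlike number gave -0.10 to 0.21. No pairing by number was seen, and whether equal numbers shared a batch was not tested. With the replicate number as a block 2420 genes passed, 1638 higher and 782 lower, with 181 and 57 list members. TPST missed the threshold with the 2 groups alone (-0.39), without a filter (-0.40) and with the block (-0.40), and ranged from -0.44 to -0.38 without 1 library. PSYR1 gave 2.41 with the block, 1.45, 2.03 and 0.69 with limma at pseudocounts of 1, 0.1 and 5, and 2.17 to 2.61 without 1 library. PSYR2 passed with DESeq2 (0.64), did not pass with the block (0.61) or with limma (0.23, 0.22 and 0.17, adjusted p = 0.533, 0.624 and 0.387), and ranged from 0.54 to 0.89 without 1 library. PSYR3 passed with DESeq2 (-0.78), limma on the deposited TPM (-0.87, -1.14 and -0.45) and the block (-0.81). It missed the threshold with limma on normalised TPM (-0.65), and ranged from -0.94 to -0.53 without 1 library. The causes were not tested. At 8610277 to 16816553 reads per library, genes with few reads in both groups are the least certain.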
